A study of Mus musculus with 12 samples.

Results

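Gzmc, Gzmd, Gzme, Gzmf and Gzmg are 5 mouse granzyme genes that lie side by side on chromosome 14, and their mRNA was followed here through 12 CT-26 tumors, of which 6 belong to a control group and 6 to a swimming group. They were taken by their Ensembl identifiers from the 30630 genes listed for every tumor, and all 5 were among the 19018 genes that reached 0.1 FPKM in at least 6 tumors. FPKM is a number of sequenced fragments divided by the length of the gene and by the depth of the library, so levels of different genes can be set side by side. The 5 genes were selected on the difference of their FPKM values between the groups in these same tumors. For that reason this difference is given as a description, without a test.

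CT-26 is a mouse colon carcinoma cell line. CT-26 cells in Matrigel were injected under the skin of the right flank of male BALB/c mice. The mice were 4 to 6 weeks old when bought. At 3 days after the injection they were assigned at random, with regard to tumor volume, to a control group and a swimming group. Each group had 10 mice. Mice of the swimming group swam 2 times per day on 6 days per week, in sessions that were lengthened to 30 min, and tumors were taken after 3 weeks. RNA-Seq was done on 6 tumors of each group, each from another mouse. Both groups carried tumors of the same line, and no genetic change or drug is described for either. The labels give the cell type as CT-26 cells, but each sample is a piece of whole tumor. Of the epithelial markers, Epcam and Cldn4 were near 0, at a mean of 0.0312 and 0 FPKM in the control group, while the keratin genes Krt8 and Krt18 had 29.0 FPKM (with 129 FPKM in control 4) and 10.1 FPKM. The mesenchymal filament gene Vim had 543 FPKM, and the macrophage complement gene C1qa had 362 FPKM.

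Granzymes are serine proteases that cytotoxic T cells and natural killer (NK) cells keep in secretory granules together with the pore-forming protein perforin. After release towards a target cell, perforin lets the granzymes enter it, where granzyme B and granzyme A cut proteins and start cell death. The C to G members are found in rodents, are known from strongly activated killer lymphocytes and from NK cells of the pregnant uterus, and their substrates are less well known. In bulk tumor RNA, fewer cells that express such a gene and less of its RNA in each cell cannot be told apart.

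By the GENCODE annotation of GRCm38, the 5 genes lie on the minus strand within chr14:56117626-56234656, a stretch of 117 kb, and each has 1 transcript with 5 exons. Their order by coordinate is Gzme (56117626 to 56120625), Gzmd (56129556 to 56132608), Gzmg (56156582 to 56159579), Gzmf (56205263 to 56211417) and Gzmc (56231441 to 56234656). Between Gzmg and Gzmf lies 1 other protein-coding gene, Gzmn, with an antisense RNA gene and 3 pseudogenes. Gzmb follows Gzmc at 56258838 to 56262260, and Ctsg, the gene of the granule protease cathepsin G, precedes Gzme at 56099881 to 56102574.

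The genes are also alike in sequence, which matters both for what they share and for how short reads can be assigned to them. The 150 bases before the RefSeq transcription start are shown for the 5 genes and for their neighbor Gzmb. RefSeq promoters on GRCm38.p6 were found for all of them. They are printed 5′ to 3′ on the minus strand, and capitals mark the letters TGTGGT (the reverse complement of the RUNX motif ACCACA), TGACGTCA (a cyclic AMP response element, CRE), the AP-1 motif TGANTCA and, at the last bases of Gzme, the beginning of the T-box core CACACC. In order, the windows are chr14:56234658-56234807, chr14:56211408-56211557, chr14:56159580-56159729, chr14:56132594-56132743, chr14:56120626-56120775 and chr14:56262335-56262484.
Gzmc: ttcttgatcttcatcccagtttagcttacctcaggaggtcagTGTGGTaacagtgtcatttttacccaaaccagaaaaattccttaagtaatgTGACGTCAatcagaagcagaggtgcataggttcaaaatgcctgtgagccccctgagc
Gzmf: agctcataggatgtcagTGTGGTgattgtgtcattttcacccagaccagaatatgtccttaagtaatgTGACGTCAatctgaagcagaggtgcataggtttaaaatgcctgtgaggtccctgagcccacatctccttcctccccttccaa
Gzmg: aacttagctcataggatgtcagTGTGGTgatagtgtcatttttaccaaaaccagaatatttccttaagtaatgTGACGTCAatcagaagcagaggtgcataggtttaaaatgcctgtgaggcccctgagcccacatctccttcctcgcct
Gzmd: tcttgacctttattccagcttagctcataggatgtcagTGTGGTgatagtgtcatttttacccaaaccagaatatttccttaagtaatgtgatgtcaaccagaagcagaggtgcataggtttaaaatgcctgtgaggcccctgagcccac
Gzme: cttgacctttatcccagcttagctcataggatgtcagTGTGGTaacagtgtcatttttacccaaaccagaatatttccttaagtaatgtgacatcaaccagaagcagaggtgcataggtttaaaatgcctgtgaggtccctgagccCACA
Gzmb: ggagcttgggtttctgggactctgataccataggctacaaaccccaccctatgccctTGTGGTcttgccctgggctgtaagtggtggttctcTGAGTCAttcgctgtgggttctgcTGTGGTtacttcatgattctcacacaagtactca

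Any pair of the 5 promoters had 88.0% to 97.0% identical bases over these windows, against 51.8% to 57.6% with Gzmb and 53.6% to 58.2% with Gzmn. The windows are not placed alike against the GENCODE genes. That of Gzmb begins at 56262335, while its GENCODE gene ends at 56262260. For Gzmc these are 56234658 and 56234656. The part of this shift in the low identity with Gzmb was not tested. Motifs were searched on both strands from 250 bases before to 50 bases after the start, with 32851 promoters as the background. The RUNX motif ACCACA was found in all 5 genes and in Gzmb, 2 matches each, and in 16.8% of all promoters. The 8 bases that begin 51 bases after the first base of TGTGGT read TGACGTCA in Gzmc, Gzmf and Gzmg, letters that 1.79% of all promoters hold. At the same place, counted from 1 at the 5′ end of the 8 bases and with Gzmc as the reference, Gzmd has C4T and Gzme has G5A. The shorter CRE letters ACGTCA, which lie within TGACGTCA, were found in Gzmc, Gzmf, Gzmg and Gzmb and in 7.51% of promoters. In Gzmb they begin at base 5 after the RefSeq start, outside the printed bases. The T-box core CACACC was found in Gzmc and Gzme and in 19.0% of promoters. None of the 5 windows held the AP-1 letters TGANTCA (7.81% of promoters), the STAT letters TTCNNNGAA (8.30%) or the TATA letters TATAAA (13.6%), while Gzmb had 1 AP-1 and 1 STAT match. These matches describe letters only, and a missing match says only that the letters are not in this window.

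The transcripts of the 5 genes are 894 to 964 bases long and had 74.0% (Gzmc and Gzme) to 94.8% (Gzmd and Gzme) identical bases. The longest run that a pair shares without a mismatch was 47 to 101 bases. With Gzmb the identity was 68.6% to 76.2% and the longest run 18 to 49 bases. Gzmc was closer to Gzmb (76.2%) than to any other of the 5 (at most 75.5%, for Gzmg). With Gzmn the identity was 71.6% to 84.3% and the longest run 29 to 88 bases. Of all windows of 50 bases, 4.14% in Gzmc, 7.36% in Gzmf, 15.2% in Gzmg, 19.1% in Gzme and 21.5% in Gzmd also occurred in another of the 5 transcripts, while for windows of 100 bases the share was 0.247% or less. Reads from such stretches cannot be assigned to 1 gene, so the level of a single member is less certain than that of the 5 together, above all for Gzmd and Gzme. Windows shared with Gzmb or Gzmn were not counted, so reads shared with these genes could also enter the sum of the 5. Gzmf also shares 151 exon bases with the antisense gene Gm4022, whose level did not exceed 0.0695 FPKM in any tumor. The use of strand in the counting is not given in the sources used here.

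All 5 genes were lower in most swimming tumors than in control tumors, and 1 swimming tumor, number 3, was as high as the highest controls. Gzmd, the gene with the highest control median, lay between 27.1 and 79.6 FPKM in the control group, with a median of 44.6. In the swimming group it lay between 2.89 and 87.0 FPKM, with a median of 11.98. Control 3, 4 and 6 were the high control tumors, swimming 1 and 5 were the lowest, and the groups overlapped through swimming 3. On the scale of log2(FPKM + 1), the difference of the means, swimming minus control, was −1.69 (SE 0.64), which is 3.23-fold lower.

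Gzmg ranged from 27.2 to 84.8 FPKM in the control group, with a median of 41.9, and from 2.20 to 83.0 FPKM in the swimming group, with a median of 9.44. The order of tumors was close to that of Gzmd, with swimming 5 now at the bottom, and swimming 3 and 6 reached into the control range. Its log2 difference of −1.87 (SE 0.69) was the largest of the 5 and corresponds to 3.66-fold. Gzmf, a granzyme shown to kill cells without caspases, ranged from 25.9 to 84.7 FPKM (median 41.5) in control tumors and from 3.83 to 81.8 FPKM (median 12.2) in swimming tumors. Here too swimming 3 and 6 overlapped with the controls, and swimming 1 and 5 were the lowest. The log2 difference of Gzmf was −1.61 (SE 0.62), or 3.06-fold.

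Gzmc, whose protein is likewise known to kill target cells without caspases, was lower in level and had the smallest difference. It ranged from 12.5 to 47.0 FPKM (median 22.9) in the control group and from 2.28 to 33.9 FPKM (median 9.99) in the swimming group, and swimming 3 and 6 lay within the control range. Its log2 difference was −1.16 (SE 0.52), or 2.24-fold. Gzme, the weakest of the 5, ranged from 8.54 to 32.6 FPKM (median 14.7) in control tumors and from 0.819 to 25.6 FPKM (median 3.54) in swimming tumors, and swimming 3 was the only swimming tumor above the lowest control. Its log2 difference was −1.52 (SE 0.55), or 2.87-fold. The value of Gzme in swimming 1 is about 13 times the most frequent step between values of weak genes in that tumor, which limits its precision.

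**Figure D1:**
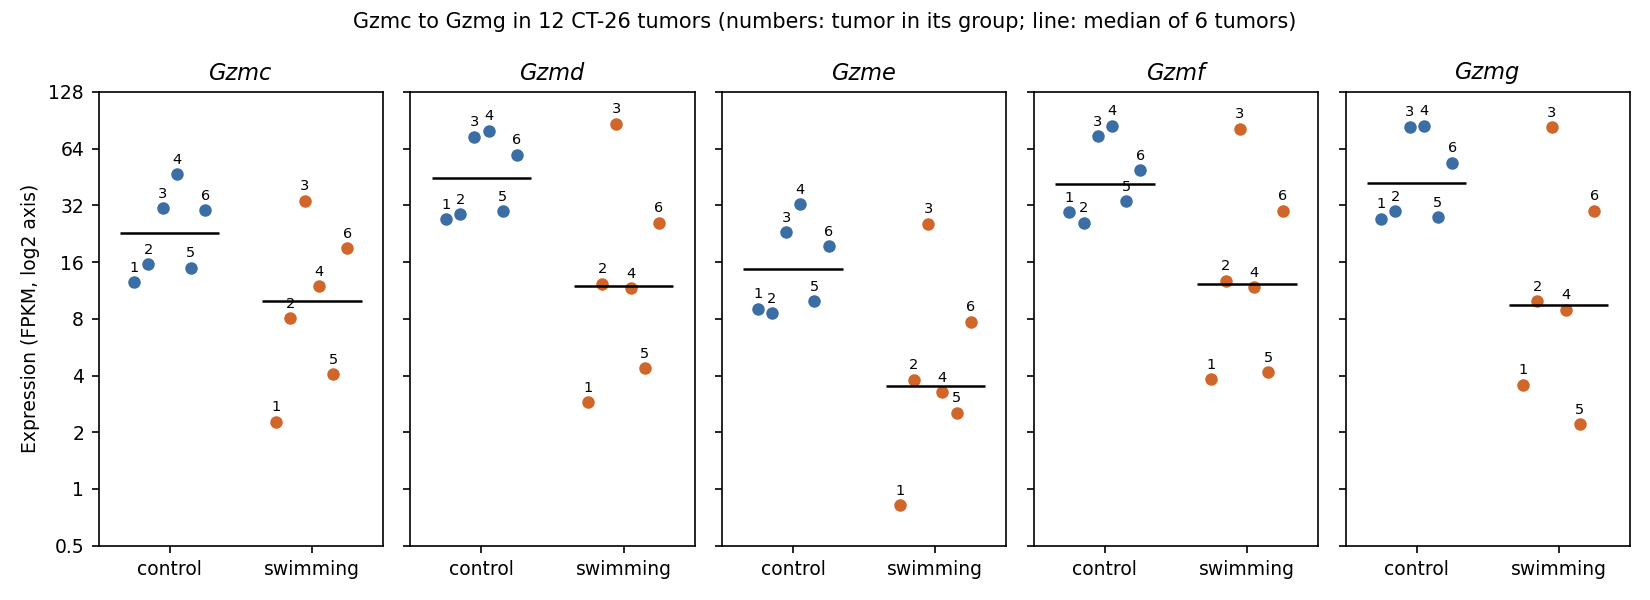
Expression of Gzmc, Gzmd, Gzme, Gzmf and Gzmg in FPKM on a log2 axis, 1 point per tumor with its number in its group, for 6 control and 6 swimming tumors, with a line at the median of the group. Swimming 3 lies with control 3 and control 4 in every gene, while swimming 1 and swimming 5 lie lowest.

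Over the 12 tumors the highest level exceeded the lowest by 20.6-fold for Gzmc, 22.1-fold for Gzmf, 30.1-fold for Gzmd, 38.5-fold for Gzmg and 39.8-fold for Gzme. In each gene 1 of 6 swimming tumors was above the control median, and it was swimming 3. By control median the order was Gzmd, Gzmg, Gzmf, Gzmc and Gzme, and the first 3 of these did not differ beyond their spread over tumors. Gzme was the lowest of the 5 genes in every tumor except swimming 5, where Gzmg was. The genes moved together, and the Pearson correlation of log2(FPKM + 1) over 12 tumors was 0.956 (Gzmc and Gzmg) to 0.995 (Gzmd and Gzmf) for the 10 pairs. These values span both groups and so include the difference on which the 5 genes were selected. Part of such likeness can come from reads of shared stretches, and that part was not tested.

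Summed over the 5 genes, control tumors had 193 ± 98.1 FPKM and swimming tumors 91.5 ± 113 FPKM (mean ± SD, n = 6 each). The control tumors 1 to 6 had 105, 109, 286, 329, 116 and 212 FPKM. The swimming tumors 1 to 6 had 13.4, 46.8, 311, 47.6, 17.3 and 113 FPKM. The control tumors thus fall apart into 3 at 105 to 116 FPKM and 3 at 212 FPKM or more, and the swimming tumors spread wider than the controls. Averaged over the 5 genes, the log2 difference was −1.57.

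The make-up of the sum was nearly constant in control tumors and less so in swimming tumors. Within control tumors Gzmd made up 26.0% ± 1.24, Gzmf 25.9% ± 2.23, Gzmg 26.3% ± 1.83, Gzmc 13.1% ± 1.46 and Gzme 8.69% ± 0.755 of the summed FPKM (SD, n = 6). Gzmc had a larger share in the swimming group, 18.4% ± 5.14 (SD, n = 6). It was 25.03% in swimming 4 and 23.5% in swimming 5, and 16.8% to 17.3% in swimming 1, 2 and 6, all above the highest control share of 14.3%, while swimming 3 had 10.9%. Gzmg had 22.1% ± 5.69 (SD, n = 6) in the swimming group, a difference below that spread. Its share was 26.6% to 26.7% in swimming 1, 3 and 6, above the control median of 25.8%. It was 21.2% in swimming 2, 18.8% in swimming 4 and 12.7% in swimming 5, all below the lowest control share of 23.96%. The shares of Gzmd (24.8% ± 2.26) and Gzmf (26.2% ± 1.67) in the swimming group differed from the control shares by less than their spread, as did that of Gzme (8.47% ± 3.12).

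Swimming 3 was ranked the highest of 12 tumors for Gzmd, the second for Gzmc, Gzme and Gzmf, and the third for Gzmg. Its level exceeded the mean of the other swimming tumors by 3.74-fold for Gzmc, 6.54-fold for Gzmf, 7.06-fold for Gzme, 7.61-fold for Gzmd and 7.61-fold for Gzmg. Without it, the sum in the swimming group was 47.5 ± 39.7 FPKM, at most 113 FPKM in swimming 6, and the mean log2 difference was −2.05. For single genes the difference without it was −1.51 (Gzmc), −2.22 (Gzmd), −1.97 (Gzme), −2.11 (Gzmf) and −2.42 (Gzmg). Groups that do not overlap, with all swimming tumors lower, were found for none of the 5 genes over all 12 tumors, and for 0.0684% of the 19018 genes tested. Without swimming 3, the groups of Gzmd and Gzme did not overlap, and 0.152% of all genes tested had such a separation. The choice of the genes used this contrast, so these counts are not evidence.

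In depth and in its overall profile swimming 3 lay among the other tumors. Its depth relative to control 1 was 0.935, within the 0.871 to 0.973 of the swimming group, and its median correlation with the other tumors over all genes tested, 0.986, was the sixth highest of 12, in a range of 0.980 to 0.988. The lowest relative depth, 0.694, belonged to control 2, and the absolute depth is unknown because FPKM hold no read numbers. Genes of skeletal muscle, 10 of 10 detected, summed to 194 FPKM in swimming 3, the third highest of 12 tumors, against a range of 3.12 to 209 in the control group and 2.50 to 289 in the swimming group, and their part in the level of the 5 genes was not tested. Swimming 3 had the highest Gzmb level of all tumors, 29.1 FPKM, and its Prf1 level of 15.8 FPKM was near the 15.9 FPKM of control 4. Its summed level of the T cell receptor genes Cd3d, Cd3e and Cd3g, 2.87 FPKM, lay within both groups.

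The neighbors along the chromosome were read from the same tumors. Gzmb, the next protein-coding gene after Gzmc and the main apoptosis-inducing granzyme, ranged from 8.58 to 20.1 FPKM (median 13.3) in the control group and from 4.73 to 29.1 FPKM (median 15.04) in the swimming group. The groups overlapped widely, with swimming 1 lowest and swimming 3 highest of all. The difference was 0.09 (SE 0.33) on the log2 scale, with an adjusted p of 0.985 (limma). Gzmn, which lies among the 5 genes, was above 0 in 2 of 12 tumors and never above 0.129 FPKM.

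Ctsg, on the other side of Gzme, was weak, at 0.436 to 2.46 FPKM (median 1.16) in control tumors and 0.337 to 1.47 FPKM (median 0.529) in swimming tumors. Control 3, control 4, control 6 and swimming 3 were its 4 highest tumors, the same that were highest for the sum of the 5 genes. The log2 difference of −0.43 (SE 0.23) had an adjusted p of 0.889 (limma), with 0.0797 before the adjustment. Mcpt8, a basophil protease gene further out, stayed at 0.674 FPKM or below, with a difference of −0.07 (SE 0.14). Weak as it was, it had the same 4 highest tumors. Its Pearson correlation with the mean log2(FPKM + 1) of the 5 genes was 0.61 over 12 tumors. Within control tumors it was 0.95, and within swimming tumors 0.61.

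Beyond Mcpt8 lie protease genes of mast cells, and those that could be tested followed other tumors. Mcpt4 ranged from 2.41 to 17.6 FPKM in the control group and from 2.76 to 9.997 FPKM in the swimming group, and Cma1 from 2.23 to 16.3 and from 2.81 to 13 FPKM. Their log2 differences were 0.16 (SE 0.40) and 0.10 (SE 0.41). Mcpt2 had a difference of 0.01 (SE 0.20), and Mcpt1, Mcpt-ps1 and Cma2 were too weak to be tested. Of the 6 neighboring genes tested, 0 passed an unadjusted p of 0.05, and their median difference was 0.05, against 0.00387 over all genes tested.

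**Figure D2:**
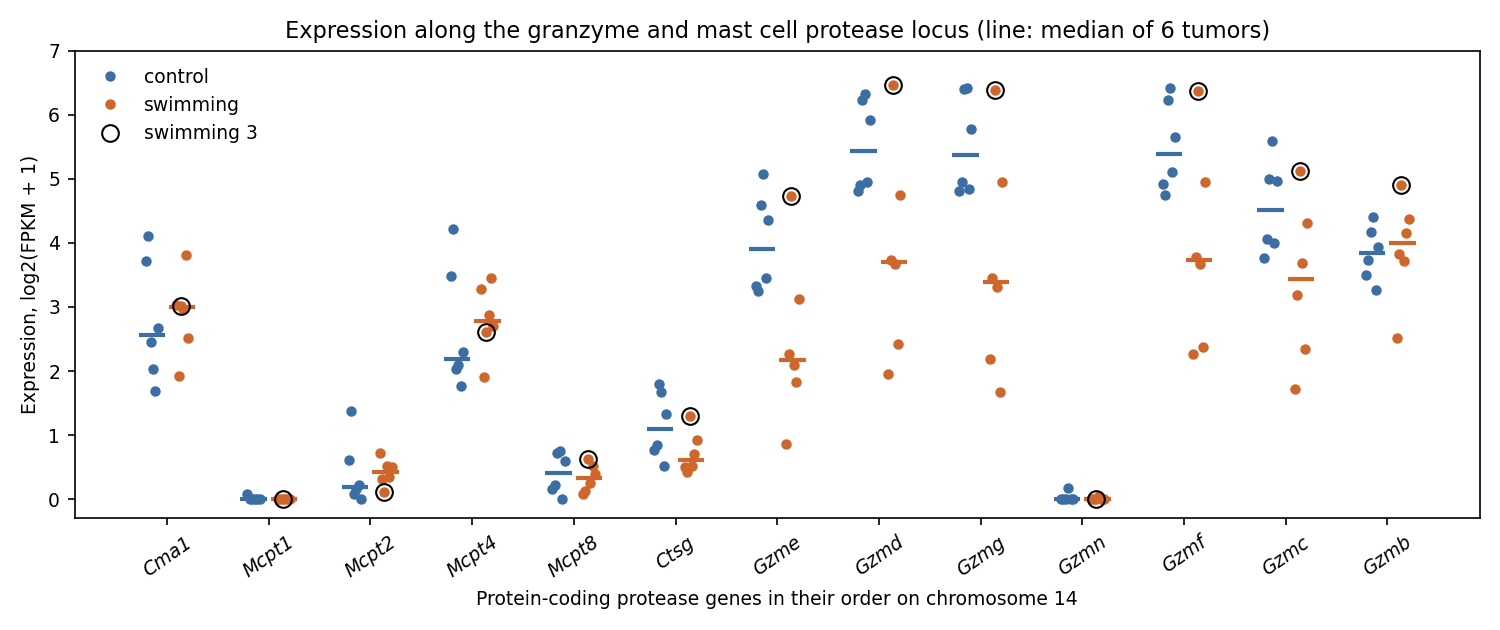
Expression as log2(FPKM + 1) of the protein-coding protease genes of the locus, in their order along chromosome 14 (not to scale), 1 point per tumor with a line at the median of 6 tumors and a ring around swimming 3. The medians of the groups lie furthest apart from Gzme to Gzmc, except for Gzmn, which is near 0, and close together in Gzmb.

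Set against Gzmb, Prf1 and Gzma tumor by tumor, the 5 genes were lower relative to them in the swimming tumors other than swimming 3 than in any control tumor. The sum of the 5 genes was 13.4 ± 3.25 times the level of Gzmb in the control group (SD, n = 6), with a range of 8.86 to 16.8. In the swimming group it was 4.62 ± 3.35 times (SD, n = 6). Swimming 3 had 10.7, within the control range, and the other swimming tumors had between 1.02 (swimming 5) and 5.70 (swimming 6), all below the lowest control.

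Prf1, the perforin gene, followed the 5 genes closely within the control group, where the sum was 15.9 to 20.7 times its level. In swimming tumors the ratio was 19.7 in swimming 3 and between 2.0 (swimming 5) and 10.995 (swimming 6) in the others. Prf1 itself had 10.2 ± 4.15 and 9.01 ± 4.25 FPKM (SD, n = 6), a log2 difference of −0.22 (SE 0.33) with an adjusted p of 0.961 (limma). Against Gzma, the gene of the tryptase-like granzyme A, the sum was 14.1 to 35.2 times in control tumors, 21.3 times in swimming 3 and 1.57 to 7.90 times in the other swimming tumors. Gzma had a log2 difference of 0.11 (SE 0.33), with an adjusted p of 0.979 (limma). Against Ctsg the ratios overlapped, at 116 to 266 in control tumors and 27.9 to 212 in swimming tumors. These ratios contain the values that chose the genes and are therefore given without a test.

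Swimming 5 had the lowest of these ratios. Its sum of the 5 genes was 17.3 FPKM, the second lowest, while its Gzmb level of 16.9 FPKM was the fifth highest and its summed Cd3d, Cd3e and Cd3g level of 5.19 FPKM was the highest of the 12 tumors. In swimming 1, Gzmb, Gzma and Prf1 were the lowest of all tumors as well, at 4.73, 3.21 and 2.62 FPKM. Relative to the 3 Cd3 genes, the sum of the 5 genes was 31.6 to 253 times in control tumors, 108 times in swimming 3 and 3.34 to 24.6 times in the other swimming tumors.

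**Figure D3:**
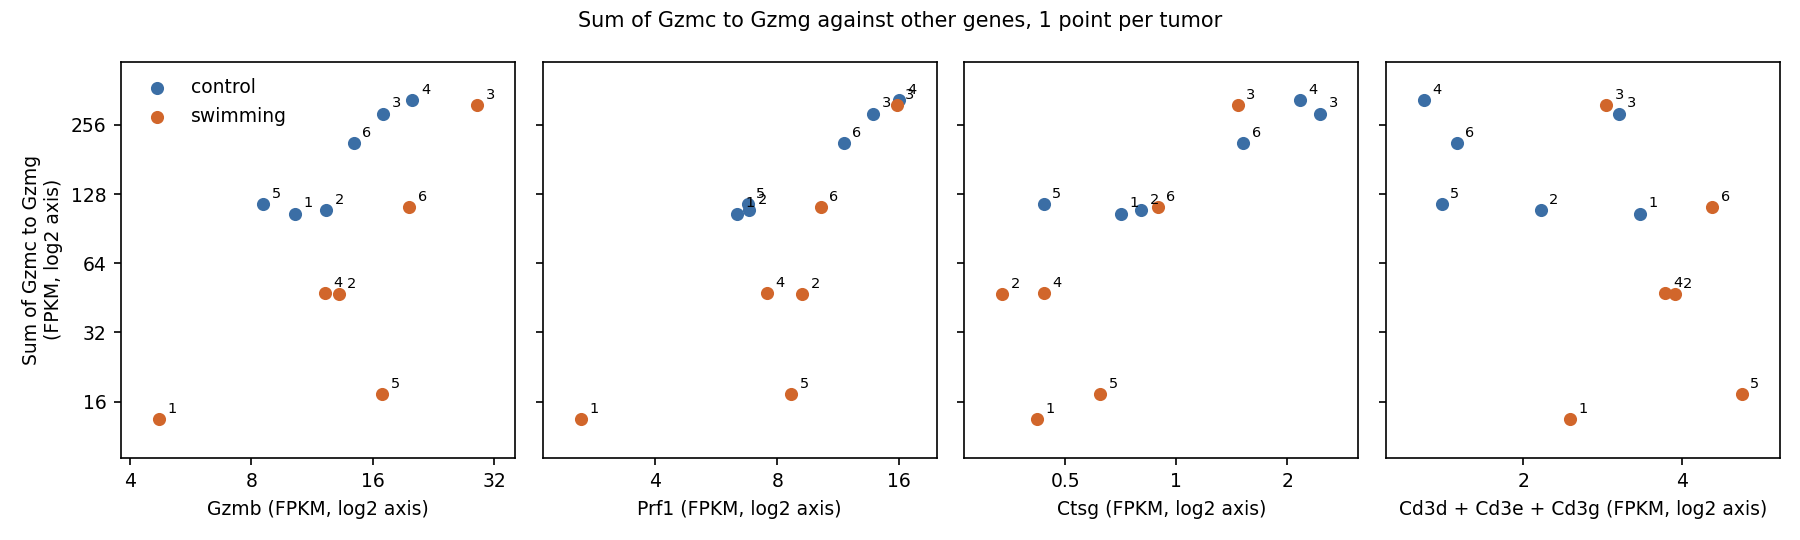
Summed FPKM of Gzmc to Gzmg against the FPKM of Gzmb, Prf1, Ctsg and the sum of Cd3d, Cd3e and Cd3g, all on log2 axes, 1 numbered point per tumor. Swimming 2, 4, 5 and 6 lie below the control tumors with a like level of Gzmb or Prf1, while swimming 3 has the highest Gzmb level and, for Prf1, lies near control 4.

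The remaining granzymes and the genes around the killing pathway were read from the comparison of all 19018 genes, in which 0% had an adjusted p below 0.05 and 5.56% (1058 genes) had an unadjusted p below 0.05 (3.11% higher in the swimming group and 2.46% lower). Among 191 genes of 21 lists, 31 were higher at an unadjusted p below 0.05, 0 were lower, and the smallest adjusted p was 0.889 (limma). The lists were chosen with earlier results of these data known, so their counts are a description and not evidence. The lists share samples and many of their genes come from the same cells, so the counts are not independent of each other. The count of 31 was 27 without swimming 3, 20 without control 5 or swimming 5, 47 without control 1 and 49 without swimming 1. With a filter of 1 FPKM the count was 18, and with the replicate block it was 19.

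Of the other granzymes, 1 of 4 tested passed the unadjusted threshold, and it was higher. This was Gzmk, a granzyme of memory-type CD8 T cells, with 0.168 ± 0.129 FPKM in control tumors and 0.419 ± 0.141 FPKM in swimming tumors, a log2 difference of 0.28 (SE 0.08). Gzmm had a difference of 0.02 (SE 0.08). The list had a median of 0.10. Its summed level was 14.1 to 34.4 FPKM in control tumors and 8.49 to 44.4 in swimming tumors, and swimming 3 was the highest.

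Among genes for processing, storing and releasing granzymes, 2 of 14 passed, both higher, and the median was 0.04. The count was 0 without control 5 or with the replicate block and 4 without swimming 1. Ctsc, the protease that activates granzyme precursors, had 37.3 ± 6.90 and 50.5 ± 13.1 FPKM, a log2 difference of 0.41 (SE 0.17). Unc13d, which primes granules for fusion, had a difference of 0.20 (SE 0.09). Srgn, the granule proteoglycan that binds granzymes, had a difference of −0.03 (SE 0.15). None of 7 granzyme inhibitor genes passed, with a median of 0.09 and a range from −0.36 for Serpinb9b to 0.86 for Serpina3g.

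In a list of other killing molecules and cytokines of lymphocytes, 4 of 9 genes passed, all higher, and 5 did not. The list median was 0.31. The genes that passed were the death ligand gene Tnfsf10 (0.47, SE 0.16), Tnf (0.43, SE 0.13), the interferon gamma gene Ifng (0.55, SE 0.17) and the chemokine gene Ccl5 (0.60, SE 0.24). Ifng had 0.367 ± 0.173 FPKM in control tumors and 1.05 ± 0.583 in swimming tumors, and 5 of 6 swimming tumors were above the control median.

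Of cytokines and receptors linked to the control of granzymes, 3 of 14 passed, all higher, with a median of 0.17 and a count of 2 to 5 with a tumor left out. Il15, a cytokine that sustains NK and CD8 T cells, had a difference of 0.32 (SE 0.10), Il21r 0.35 (SE 0.15) and Il27 0.40 (SE 0.10), and all 6 swimming tumors were above the control median for Il15 and Il27. Among signaling and transcription factors, 2 of 15 passed, Stat4 (0.18, SE 0.08) and Stat5a (0.19, SE 0.07), the transducers of interleukin-12 and interleukin-2 signals, with a list median of 0.09 and a count of 1 to 4 with a tumor left out. Tbx21, the gene of the killer cell regulator T-bet, had a difference of 0.27, and Eomes, its relative, of 0.09, both with an unadjusted p above the threshold.

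Several markers of T cells were higher in the swimming group, the opposite direction to the 5 genes. Of 16 T cell genes, 9 passed, all higher, with a median of 0.29. Among them were Cd3d, Cd3g, Cd8a, Cd8b1, Cd2, Cd5, Cd6 and Lat, genes of the T cell receptor complex, its coreceptors and its signaling. All 16 were detected, and their summed level, to which Thy1, also known from fibroblasts, adds the most, was 12.2 to 34.1 FPKM in control tumors and 17.9 to 42.4 in swimming tumors. Cd8a, the CD8 coreceptor gene, had 1.47 ± 0.710 and 2.80 ± 1.19 FPKM, and all 6 swimming tumors were above its control median. The count of 9 fell to 5 without control 5 or without swimming 5 and was 14 without control 1.

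For NK cells, 4 of 14 genes tested passed, all higher, with a median of 0.14, against 1 with a filter of 1 FPKM and 7 without swimming 1. They were the receptor genes Klrb1b, Klrk1, Klrc1 and Cd226. The NK-defining receptor gene Ncr1 had 1.17 ± 0.348 and 1.59 ± 0.635 FPKM, a difference of 0.23 (SE 0.17) that did not pass. The summed level of the list, 74.0 to 114 FPKM in control and 88.9 to 118 in swimming tumors, is mostly Tyrobp, an adaptor gene that myeloid cells also express. Klra1 was above 0 in 3 of 12 tumors. Tissue-resident lymphocyte genes had 2 of 7 higher, Cxcr6 and Tnfsf10, with a median of 0.12 and a count of 1 to 4 with a tumor left out. Inhibitory receptors of activated lymphocytes had 1 of 8 higher, Lag3 (0.48, SE 0.12), with a median of 0.10 and a count of 1 to 2 with a tumor left out.

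Few markers of other cells in the tumor passed. There were none among mast cell and basophil genes (10 tested, median 0.07), neutrophil genes (6, 0.07), macrophage genes (10, 0.05), B cell genes (2, −0.08), fibroblast genes (10, 0.06), endothelial genes (9, 0.04), skeletal muscle genes (10, 0.42) or CT-26 tumor genes (6, −0.02). The muscle median was −0.03 without swimming 5 and 0.86 without control 6. Single CT-26 tumor genes ranged from −1.09 for Krt8 to 0.14. The mean of that list had r = 0.54 with the mean of the 5 genes over 12 tumors, 0.46 within control and 0.73 within swimming tumors. Summed macrophage genes were at 890 to 1229 FPKM in control tumors and 979 to 1465 in swimming tumors, with swimming 3 the lowest of its group. Of dendritic cell genes, 2 of 9 were higher, Flt3 and Xcr1, with a median of 0.17. With a filter of 1 FPKM the count was 0 and the median −0.02, and with a tumor left out the count was 1 to 6. Of proliferation genes, 2 of 13 were higher, Mki67 and Bub1, with a median of 0.18, and the count was 1 without control 4 and 7 without swimming 1. The part of the makeup of cells in the level of the 5 genes was not tested.

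**Figure D4:**
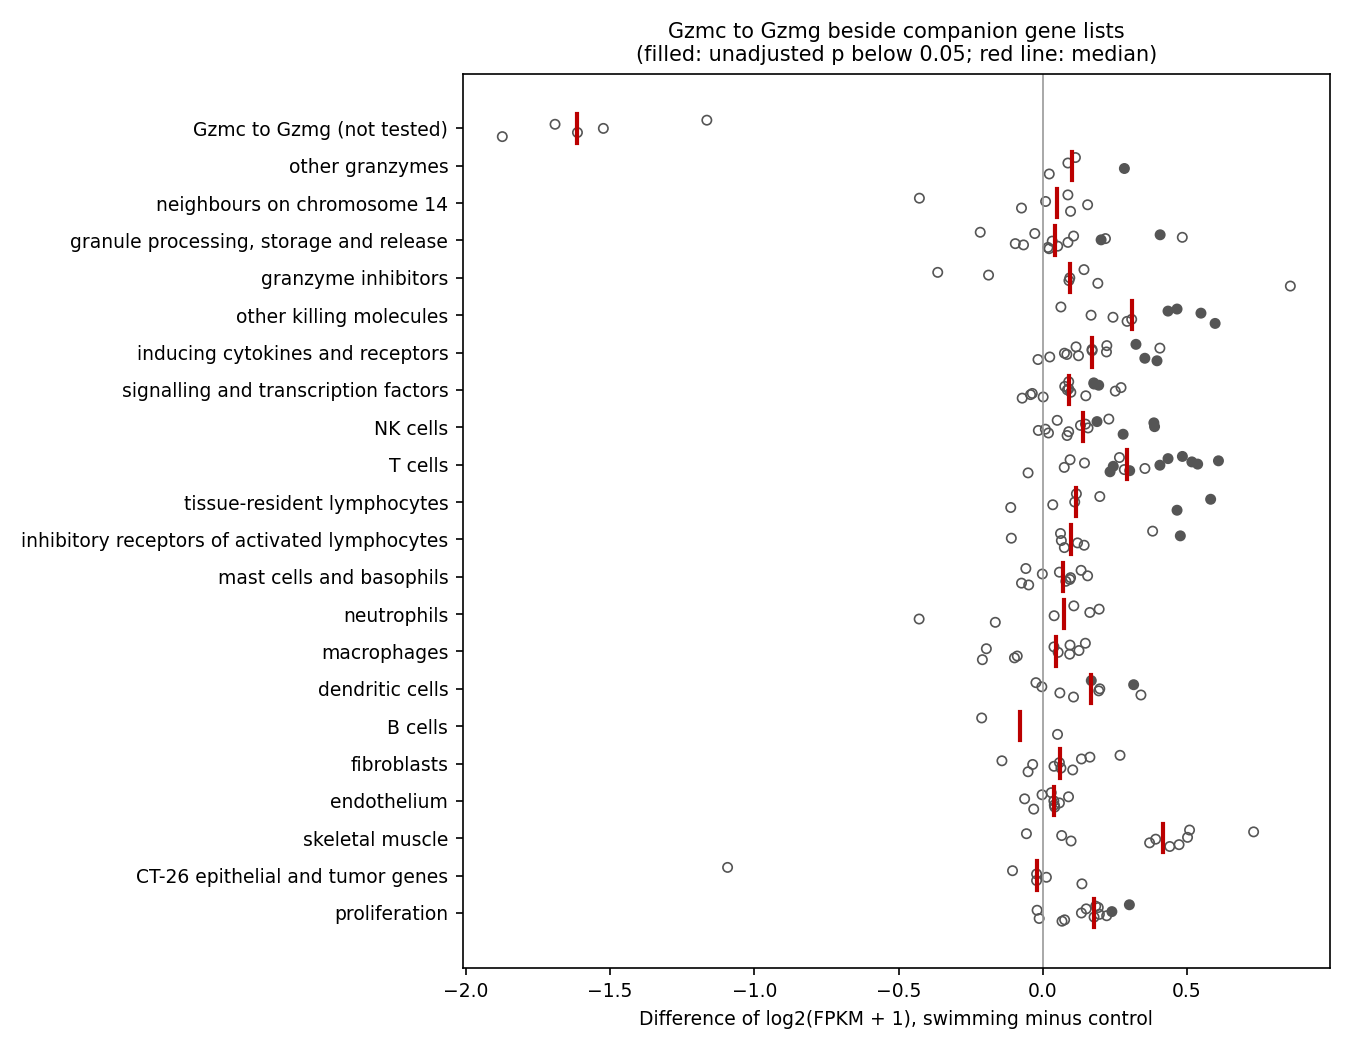
Difference of log2(FPKM + 1), swimming minus control, for Gzmc to Gzmg (shown without a test) and for each tested gene of 21 companion lists, with filled points at an unadjusted p below 0.05 and a line at the median of each list. The 5 genes lie between −1.87 and −1.16, while 19 of the 21 list medians lie above 0.

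The genes whose level over the 12 tumors was most like the 5 genes were ranked by the Pearson correlation with their mean log2(FPKM + 1), among 12784 genes with a mean of at least 1 FPKM. The correlations are a description over 12 tumors that fall into both groups, so r within each group of 6 is given beside them. The median of all r was −0.03, and 5% of genes were below −0.48 and 5% above 0.44. Atf1, a transcription factor of the CREB family, was the first with r = 0.91 (Spearman's rho 0.87), 0.85 within control and 0.90 within swimming tumors. Its level varied little, 39.2 ± 1.90 FPKM in control and 34.6 ± 2.52 in swimming tumors (SD, n = 6). Prf1 was the sixth with r = 0.78 (rho 0.75), and within the control group it had r = 0.998 against 0.82 within the swimming group.

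Ctsg was the fourth with r = 0.81 (rho 0.82), 0.95 within control and 0.82 within swimming tumors. Klrg1, an inhibitory receptor gene of mature NK and effector T cells, was the seventh with r = 0.78 (rho 0.87), and had 1.38 ± 0.842 and 0.842 ± 0.696 FPKM. Its r was 0.76 within control and 0.77 within swimming tumors. The others among the first 10 are given with r over 12 tumors, within control and within swimming tumors, in that order. They were Csnk2a2 (0.84, 0.63 and 0.77), Pkd2l2 (0.82, 0.76 and 0.75) and Aspscr1 (0.79, 0.45 and 0.75). Below these came Slc48a1 (0.77, 0.90 and 0.62), Plin3 (0.77, 0.82 and 0.71) and the small RNA gene Gm22314 (0.77, 0.91 and 0.85). Gzmb stood at rank 102 (r = 0.62) and Gzma at rank 408 (r = 0.49). For Gzma, r was 0.72 within control and 0.69 within swimming tumors.

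Without swimming 1 and swimming 5, the tumors farthest from the median, r was 0.86 for Atf1, 0.92 for Ctsg, 0.77 for Prf1, 0.61 for Gzmb and 0.34 for Gzma. When each tumor was taken as its deviation from its group mean, the most alike were Plekhf2 (0.89), Atf1 (0.88), Gm22314 (0.86), Pgrmc1 (0.85) and Prf1 (0.85). Gzmb had 0.83 on this measure. Plekhf2 had r = 0.04 over all 12 tumors and was higher in the swimming group, with a log2 difference of 0.16 (SE 0.06). Within groups Gzmb followed the 5 genes, with r = 0.92 in control and 0.80 in swimming tumors, against 0.62 over all 12 tumors.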

How the data were processed

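RNA-Seq was done by the authors on total RNA depleted of ribosomal RNA, from 6 control and 6 swimming tumors. Reads were mapped with HISAT2 2.0.5 and quantified with StringTie 1.3.3, per the submitters' processing notes, which list both hg38 and GRCm38. The files hold mouse Ensembl genes, so names and coordinates were matched by identifier to GENCODE M21 (GRCm38), with a symbol for 30542 of 30630 genes. The authors deposited 1 FPKM value per gene and tumor, already divided by length and depth, so no counting error could be given. Groups were taken from the labels.

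Expression was compared on log2(FPKM + 1), which understates the change of weak genes, for the 19018 genes that 6 or more tumors held at 0.1 FPKM or above. A linear model with moderated variances that follow the mean level (eBayes of limma 3.58.1, R 4.3.3) was used without covariates, with Benjamini-Hochberg adjustment, and was tested on simulated data. The 5 genes and the 21 gene lists were chosen with earlier results of these data known. Named are the 5 genes, the other granzymes, the neighbors, Prf1, list genes at an unadjusted p below 0.05, the 10 genes most alike over 12 tumors and the 5 most alike in deviations from group means. Any other gene was named with its values known, and 1 list gene that the rule names is not reported here. Mcpt9, Il2, Il21, Vamp7, Klra8 and Klra9 were not analysed here. Python 3.11.15, pandas 2.3.3, scipy 1.17.1 and matplotlib 3.10.9 were used. Alternatives were pseudocounts of 0.1 and 0.01, quantile normalization, trimmed-mean scaling, no filter or one of 1 FPKM, eBayes without trend, a replicate block, and each tumor left out in turn.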

Additional observations from a re-analysis of the deposited data

Results flagged for a closer look

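In groups of 6 tumors, a highest or lowest tumor was looked at again when its gap to the nearest other tumor exceeded Dixon's critical share of the range of the group. This was so in 12 of 72 groups of values examined, where chance gives about 3.6 for normally distributed values. Many of these values share the same tumors. The 5 values of swimming 3 belong to genes selected on these tumors, so the chance count does not bear on them and they are a description. Swimming 3 stood apart in the swimming group for Gzmd (87.0 FPKM, the next 26.0), Gzme (25.6, the next 7.73), Gzmf (81.8, the next 30.02), Gzmg (83.0, the next 29.9) and the sum of the 5 genes (311, the next 113). These gaps were taken in FPKM, where a high value stands apart more easily than on the log2 scale. Gzmc and the mean of the 5 genes on the log2 scale did not stand apart in this way. Mcpt2 was high in control 2, at 1.60 FPKM with 0.529 as the next. As the mean log2(FPKM + 1) of a list, NK cell genes were low in control 5 (0.75, the next 1.00). Neutrophil genes were high in swimming 6 (2.04, the next 1.57), and macrophage genes were high in swimming 5 (6.31, the next 5.98). Dendritic cell genes were high in control 1 (0.90, the next 0.51). B cell genes were high in control 1 (1.73, the next 0.38) and in swimming 5 (0.84, the next 0.47).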

How the results depend on the processing

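The differences of the 5 genes and their mean were negative in all 120 values computed under the alternatives. The 5 genes were selected on this difference in the same tumors, so its sign was largely set beforehand and is not evidence. The filters, eBayes without trend and the replicate block cannot change these differences, so their values only repeat the main ones. Their mean, −1.57, was −1.75 with a pseudocount of 0.01 and between −2.05 (without swimming 3) and −1.24 (without swimming 1) when a tumor was left out. Of 419 list medians under alternatives, 16 moved by more than the spread between tumors, and the B cell list gave no value with a filter of 1 FPKM because none of its genes remained.

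Between 729 (filter of 1 FPKM) and 1445 (no filter) genes had an unadjusted p below 0.05, against 1058, and 820 to 1427 when a tumor was left out. An adjusted p below 0.05 was reached by 0 genes in all of these except without control 4 (3 genes) and without swimming 1 (2 genes), a range of 0 to 3. List genes that were higher numbered 31, 18 with the filter of 1 FPKM, 19 with the replicate block and 20 to 49 with a tumor left out. List genes that were lower numbered 0, 1 with either smaller pseudocount or quantile normalization, 2 with the replicate block and 0 to 2 with a tumor left out. The cause of these changes was not tested.

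The numbers 1 to 6 occur in both groups. Deviations of same-numbered tumors correlated at −0.12 on average, and 0 of 12 tumors correlated best with their own number. The block gave 892 genes. It cannot change the mean difference of the 5 genes, −1.57, because each number holds 1 control and 1 swimming tumor. Depth is unknown, so weak genes are the least certain.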
